A study of Homo sapiens with 6 samples.

Results

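Retinoic acid, the active form of vitamin A, reaches its nuclear receptors through a short chain of proteins, and 9 genes of that chain were examined in melanoma cells with and without a hairpin against PRAME. They were taken by name: the retinoic acid receptors RARA, RARB and RARG, the retinoid X receptors RXRA and RXRB, the retinol importer gene STRA6, the retinoic acid carrier gene CRABP2, the retinaldehyde reductase gene DHRS3 and the retinoic acid synthesis gene ALDH1A3. All 9 were found among the 40895 NCBI gene identifiers in the deposited files, and all 9 were among the 15954 genes with enough counts to test.

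RNA came from A375SM, a metastatic human melanoma line, in 6 polyA RNA sequencing libraries that share 1 batch label and the genotype label WT. The shCtrl group is 3 libraries of cells with a control short hairpin RNA, and the shPRAME group 3 libraries of cells with one against PRAME, a testis and tumour antigen known for binding retinoic acid receptors and repressing their signalling. The sources used here do not give the number of hairpins, the time from transduction to RNA extraction, or any addition of retinoids to the medium. The labels do not say whether the libraries of a group came from separate transductions, so every p-value rests on library-to-library spread alone, and that spread may be technical. In RNA from whole cultures, fewer cells of a type and less RNA per cell cannot be told apart.

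As background, cells take up retinol, oxidize it reversibly to retinaldehyde and then, irreversibly, to retinoic acid, which CYP26 enzymes clear. Retinoic acid binds RARs, which sit on DNA as pairs with RXRs. Without ligand the pair recruits corepressors such as NCOR1, and with ligand it recruits coactivators, so the same pair can hold a gene down or switch it on. RARB, DHRS3, STRA6, CRABP2 and the CYP26 genes are themselves textbook targets of retinoic acid. Melanocytes and melanoma cells in culture are known to respond to retinoic acid with slower growth, and ALDH1A3 is often abundant in melanoma.

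A DNA element through which RARs act is a direct repeat of a motif of 6 bases, with 5 bases between the copies. The motif was taken here as AGGTCA in its first form, AGTTCA in another, GGGTCA in the next and GGTTCA in the last. The element was searched on both strands of the RefSeq promoter windows of assembly GRCh38.p14, each with 250 bases before and 50 after a gene start. It was present in 31 of 35116 windows (0.0883%). The 9 genes had 22 such windows, and 1 of them, a start inside the RARB gene, held the element. It is shown because RARB is the receptor that retinoic acid induces through it. It lies at chr3:25428163-25428262 on the plus strand, in a stretch that no exon of RARB in GENCODE release 29 covers, and ends at the base before the start. The capitals mark both copies of the motif, at -53 to -37 from the start.
RARB: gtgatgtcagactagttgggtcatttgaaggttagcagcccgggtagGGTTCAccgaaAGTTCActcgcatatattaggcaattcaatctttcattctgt
The second gene of the pathway with the element was CYP26A1, the retinoic acid hydroxylase, at chr10:93073797-93073826 of the plus strand, where 1 annotated exon overlaps it. Here the capitals mark the copies as they read on the gene's own strand, and the element runs on the opposite strand.
CYP26A1: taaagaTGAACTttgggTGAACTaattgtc
A repeat with 1 or 2 bases between the copies was found in 0.131% and 0.0399% of all windows and in none of the 22 windows of these 9 genes. A match is a description of the letters, and its absence says only that they are not in this window. Of 29 genes with the 5-base spacing in a window, 10 were tested, 4 were higher and 5 lower in shPRAME, in a comparison where 74.4% of all tested genes were called. The counts of RARB do not tell which of its starts was used.

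The libraries held 30842788 to 34107332 counts each, so a gene with 0 counts in a library could still stand at up to 0.0868 to 0.0972 CPM, the counts scaled to library size and per-library TMM factor that are the unit of every level below unless stated. PRAME itself fell 2.92-fold, from 165 ± 1.26 to 56.4 ± 2.29 CPM (mean ± SD, n = 3 each, as throughout). Of 12 melanocyte and melanoma markers 7 were tested, 2 were higher, 4 lower and 1 did not pass, with a median log2 fold change of -0.24. Across all tested genes 37.7% were called higher and 36.8% lower. Among the 7 were SOX10 at 266 ± 7.95 CPM in shCtrl and 275 ± 1.48 in shPRAME and MITF at 44.6 ± 1.38 and 37.6 ± 0.740. The pigment genes TYR and MLANA had almost no reads in either group. Summed melanoma markers ranged from 817.8 to 837.5 CPM in shCtrl and from 659.7 to 664.9 in shPRAME, a difference mostly in markers not named here. Of 8 fibroblast markers 7 were tested, 5 were higher, each at least 2-fold, and 2 lower, 1 of them at least 2-fold. Across all tested genes 10.1% were called higher and 8.43% lower by at least 2-fold. COL1A2 stood at 0 in shCtrl and 21.6 ± 1.31 CPM in shPRAME, but the summed level fell, through markers not named here. Summed fibroblast markers ranged from 112.5 to 116.2 CPM in shCtrl and from 88.0 to 95.2 in shPRAME, leukocyte markers from 43.1 to 45.4 and from 72.3 to 74.3, keratinocyte markers from 27.7 to 29.6 and from 23.2 to 24.3, and endothelial markers from 0.292 to 0.946 and from 3.01 to 3.85. The leukocyte sum was almost all CD68, with PTPRC at 0 in shCtrl and 0.925 ± 0.199 CPM in shPRAME and CD3E at 0 in all 6 libraries, and KRT5 and CDH5 were at 0 throughout. Of 6 endothelial markers 2 were tested, 1 was higher by at least 2-fold and 1 did not pass. Other cells' part in the results below was not tested.

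Of the 9 retinoid genes, 5 rose (RARB, RXRB, STRA6, DHRS3 and ALDH1A3), 3 fell (RARG, RXRA and CRABP2) and RARA did not pass the test. Across all tested genes 37.7% were called higher and 36.8% lower, 74.4% in all, so the 8 of 9 called here were close to the background of this comparison. The groups did not overlap at 8 of the 9 genes and at 76.5% of all tested genes. The median log2 fold change was 0.37 over the 9 genes and 0.01 over all tested genes. The changes were moderate: 1 of the 9, ALDH1A3, rose at least 2-fold, as did 10.1% of tested genes, and none fell at least 2-fold, as 8.43% did (18.6% in both directions). The 9 genes kept their call and sign in all 16 alternative analyses, including a test against a minimum fold of 1.2, which 48.4% of all tested genes passed.

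**Figure D1:**
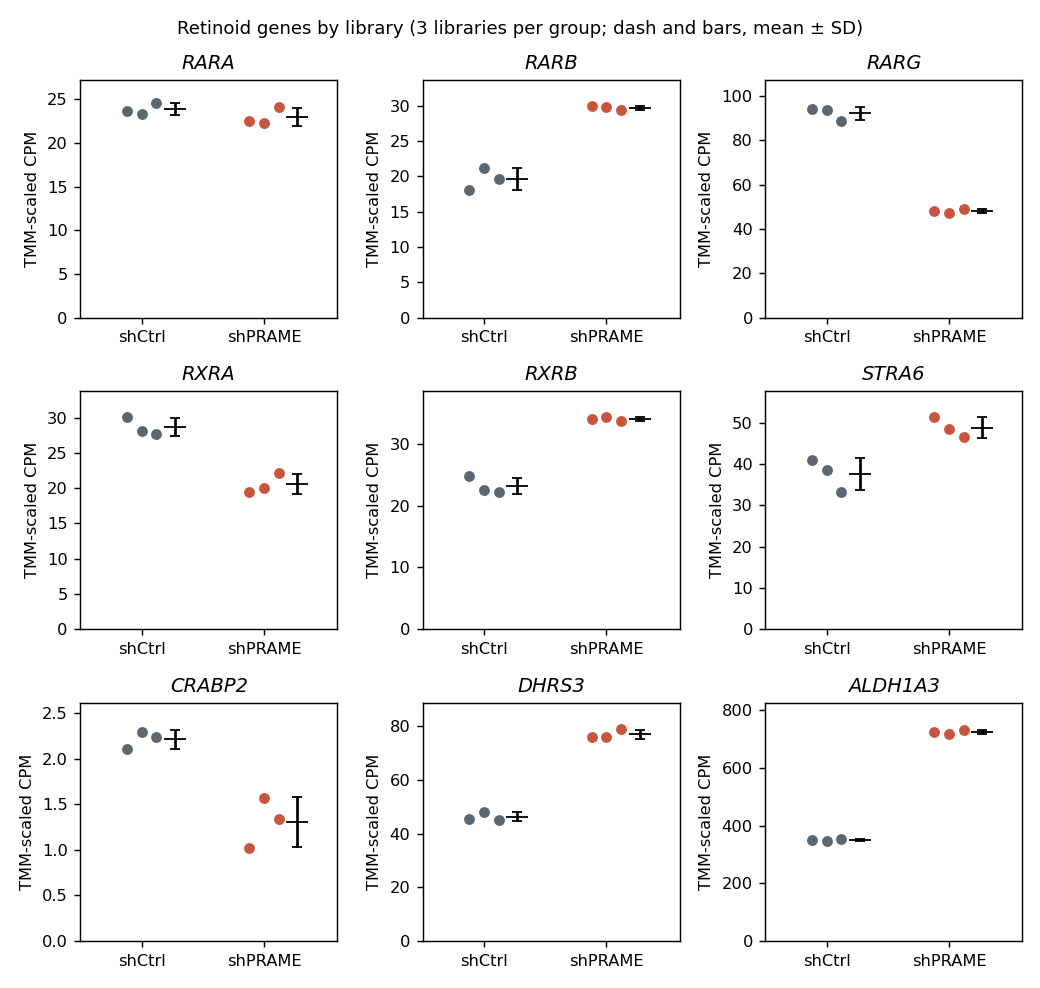
Each panel plots 1 gene, with TMM-scaled CPM on a linear axis from 0 and 1 point per library; the dash and bars are the mean ± SD of 3 libraries. The groups lie apart in every panel except RARA, where the shPRAME points, 22.2 to 24.1 CPM, overlap the shCtrl points, 23.3 to 24.6 CPM.

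Of the RARs, which bind retinoic acid, RARG fell, RARB rose and RARA did not pass. RARG, the isotype typical of skin (NCBI gene 5916, chromosome 12, 53210569 to 53232209, GRCh38), stood at 93.97, 93.8 and 88.7 CPM in the shCtrl libraries and at 48.3, 47.3 and 48.8 in shPRAME. The lowest control library was well above the highest knockdown library, and RARG fell 1.92-fold (log2 fold change -0.94, SE 0.0334, edgeR adjusted p = 8.54e-14). RARB, the isotype that retinoic acid induces and that tumours often silence (NCBI gene 5915, chromosome 3, 24829321 to 25597932), had 18.1, 21.2 and 19.6 CPM in shCtrl and 29.9, 29.8 and 29.4 in shPRAME. The shPRAME libraries were all higher and close together, and RARB rose 1.51-fold (log2 fold change 0.60, SE 0.0559, edgeR adjusted p = 3.53e-08). RARA, the most widely expressed isotype (NCBI gene 5914, chromosome 17, 40309180 to 40357643), had 23.7, 23.3 and 24.6 CPM in shCtrl and 22.5, 22.2 and 24.1 in shPRAME. Its libraries overlapped between the groups, and it did not pass (log2 fold change -0.06, SE 0.0515, edgeR adjusted p = 0.334).

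RXRs are the shared partners of RARs and of several other nuclear receptors, and here too the isotypes parted. RXRA (NCBI gene 6256, chromosome 9, 134326455 to 134440585) had 30.1, 28.1 and 27.7 CPM in shCtrl and 19.5, 20.1 and 22.1 in shPRAME. The groups did not overlap, and RXRA fell 1.39-fold (log2 fold change -0.48, SE 0.0564, edgeR adjusted p = 7.08e-07). RXRB (NCBI gene 6257, chromosome 6, 33193588 to 33200853) had 24.7, 22.6 and 22.3 CPM in shCtrl and 34.01, 34.4 and 33.6 in shPRAME. All knockdown libraries were higher, and RXRB rose 1.47-fold (log2 fold change 0.55, SE 0.0485, edgeR adjusted p = 1.65e-08). The remaining isotype, RXRG, found in few tissues and known from muscle, brain and neural crest, had the largest change of the 6 receptors. RXRG (NCBI gene 6258, chromosome 1, 165400922 to 165445126) had 59.1, 60.8 and 65.4 CPM in shCtrl and 10.4, 10.8 and 9.35 in shPRAME. It fell 6.06-fold (log2 fold change -2.60, SE 0.0565, edgeR adjusted p = 1.15e-16), and 5.65% of tested genes changed by more.

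Because a long mRNA gives more reads, levels of different genes were compared as CPM per kilobase of the gene's longest GENCODE transcript. On this scale the summed RAR level was 45.4 ± 0.898 in shCtrl and 33.5 ± 0.498 in shPRAME, and the summed RXR level 40.4 ± 1.01 and 19.8 ± 0.286. RARG made up 68.7 ± 1.23% of RAR mRNA in shCtrl and 48.6 ± 0.175% in shPRAME. RARB made up 14.03 ± 1.02% and 28.8 ± 0.659%, and RARA 17.3 ± 0.827% and 22.5 ± 0.700%. RARG thus stayed the most abundant RAR in all 6 libraries, while RARB passed RARA in the shPRAME libraries.

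The RXR pool changed its leading member. RXRG made up 67.9 ± 2.16% of RXR mRNA in shCtrl and 22.9 ± 1.45% in shPRAME, and RXRB 19.8 ± 1.42% and 59.1 ± 0.322%. The share of RXRA was higher in shPRAME, 18.02 ± 1.39% against 12.3 ± 0.741%, although its own level was lower. Per kilobase of coding sequence the share of RXRA was 25.99 ± 1.28% in shCtrl and 34.3 ± 2.07% in shPRAME, and that of RXRB 18.1 ± 1.102% and 48.8 ± 0.804%, so which of these genes was the more abundant in shCtrl depended on the length used. The log2 ratio of summed RAR to summed RXR was 0.168 ± 0.0639 in shCtrl and 0.758 ± 0.0417 in shPRAME. For each of these sums, shares and the ratio the groups did not overlap, and the exact 2-sided permutation p was 0.1, the smallest that 3 against 3 libraries can give. RXRA and RXRB together stood at 12.9 ± 0.683 and 15.3 ± 0.170 per kilobase of transcript, but per kilobase of coding sequence at 35.1 ± 1.76 and 35.9 ± 0.855, which was no longer apart (exact permutation p = 0.5).

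**Figure D2:**
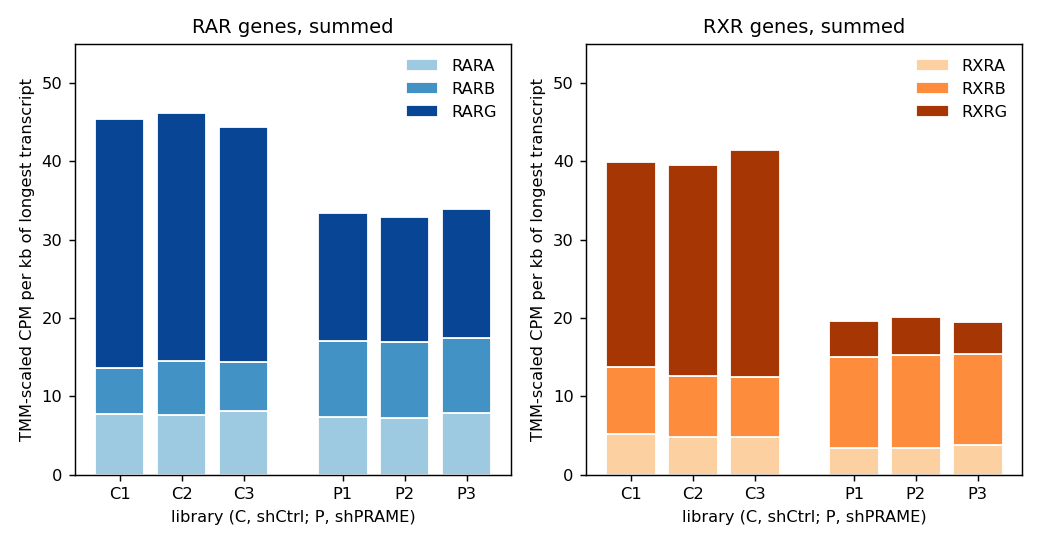
Stacked bars give the level of each receptor gene in each library, in TMM-scaled CPM per kilobase of the longest transcript, for the RAR genes (left) and the RXR genes (right); C1 to C3 are shCtrl and P1 to P3 shPRAME replicates. RARG is the largest block of the left panel in all 6 libraries, and on the right RXRG is the largest block in shCtrl and RXRB in shPRAME.

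Retinol enters cells through STRA6, a membrane receptor for the serum retinol carrier, and retinoic acid inside the cell is carried by CRABP2, which hands it to RARs. STRA6 (NCBI gene 64220, chromosome 15, 74179466 to 74212259) had 40.98, 38.6 and 33.4 CPM in shCtrl and 51.5, 48.6 and 46.5 in shPRAME. It was the most variable of the 9 genes in shCtrl, with a coefficient of variation of 10.3%, yet the groups did not overlap and it rose 1.3-fold (log2 fold change 0.37, SE 0.0582, edgeR adjusted p = 1.83e-05). CRABP2 (NCBI gene 1382, chromosome 1, 156699606 to 156705784) was the rarest of the 9, with 71, 75 and 69 counts in the control libraries and 32, 54 and 46 in the knockdown libraries. Its levels of 2.10, 2.29 and 2.24 CPM and 1.02, 1.57 and 1.33 CPM did not overlap, and it fell 1.68-fold (log2 fold change -0.75, SE 0.172, edgeR adjusted p = 0.000825). In shPRAME its coefficient of variation was 20.8%, where counting error alone gives 15.1%.

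Retinoic acid can also be carried by FABP5, a fatty acid binding protein described as delivering it to the nuclear receptor PPARD. FABP5 rose 2.95-fold, from 54.6 ± 1.21 to 161 ± 3.30 CPM (log2 fold change 1.56, SE 0.0301, edgeR adjusted p = 2.54e-17), whereas PPARD, named after its values were seen, fell from 15.5 ± 0.445 to 11.04 ± 1.08 CPM. The log2 ratio of CRABP2 to FABP5 per kilobase went from -4.69 ± 0.0378 to -7.02 ± 0.310, with no overlap (exact permutation p = 0.1). FABP5 is uncertain: transcripts of 8 other annotated genes matched it over at least 100 bases at 95% identity or more, the longest over 539 bases. The same search found no such gene for any of the 9 or for RXRG. Of 13 genes of uptake and binding besides STRA6 and CRABP2, 4 were tested, FABP5 among them. The lipoprotein receptor genes SCARB1 and CD36 rose, from 138 ± 4.95 to 191 ± 6.68 CPM and from 32.1 ± 1.54 to 49.99 ± 1.05 CPM. The retinaldehyde binding protein gene RLBP1 fell from 1.59 ± 0.221 to 0.901 ± 0.121 CPM. With the median change of the 10 nearest genes on each side removed, CD36 did not pass (log2 fold change 0.02). CRABP1, a second carrier of retinoic acid, had 0 counts in the controls but 7, 8 and 8 with the knockdown, below the filter for testing.

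DHRS3 returns retinaldehyde to retinol and so restrains synthesis of retinoic acid. DHRS3 (NCBI gene 9249, chromosome 1, 12567910 to 12618210) had 45.4, 48.2 and 45.1 CPM in shCtrl and 76.2, 76.2 and 79.00 in shPRAME. Every shPRAME library was higher, and it rose 1.67-fold (log2 fold change 0.74, SE 0.0350, edgeR adjusted p = 3.93e-12). RDH10, which works in the other direction and makes retinaldehyde from retinol, chosen here for its role and with its values known, also rose, from 17.5 ± 0.562 to 27.01 ± 0.823 CPM (log2 fold change 0.63, SE 0.0516, edgeR adjusted p = 6.7e-09). Of 20 enzymes of this step besides DHRS3, RDH10 included, 8 were tested, and 5 rose, 1 fell and 2 did not pass. With DHRS3 counted in, 77.8% of the tested enzymes were called, near the 74.4% of all tested genes. AKR1C3, an aldo-keto reductase that also acts on steroids and prostaglandins, rose from 0.759 ± 0.0931 to 13.8 ± 0.260 CPM, and RDH11, a retinaldehyde reductase, from 55.3 ± 2.44 to 81.6 ± 1.44 CPM. RDH13 fell from 10.7 ± 0.164 to 7.56 ± 0.162 CPM.

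ALDH1A3 makes retinoic acid from retinaldehyde and had the highest level of the 9 genes. ALDH1A3 (NCBI gene 220, chromosome 15, 100879831 to 100916626) had 351, 346 and 353 CPM in shCtrl and 726, 717 and 730.2 in shPRAME, and 1.35% of tested genes had a higher mean over the 6 libraries. The libraries of each group were within a coefficient of variation of 1.07% in shCtrl and 0.968% in shPRAME, and ALDH1A3 rose 2.07-fold (log2 fold change 1.05, SE 0.0221, edgeR adjusted p = 8.19e-17). Its relatives were all but silent. ALDH1A1 had 14 counts over the shCtrl group and 11 over shPRAME, and ALDH1A2 had none in any library, so ALDH1A3 gave 99.9 ± 0.0379% of ALDH1A mRNA in shCtrl and 99.97 ± 0.00555% in shPRAME. The summed ALDH1A level per kilobase went from 89.3 ± 0.988 to 185 ± 1.78 (no overlap, exact permutation p = 0.1).

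Genes that clear retinoic acid were near the limit of detection in both groups, and none of the 5 listed could be tested. CYP26C1 had no count in any library. CYP26A1, whose promoter element is printed above, had 1 count in the 6 libraries. CYP26B1 had 30 counts over the shCtrl group and 14 over shPRAME. The ratio was 0.453 (95% counting interval 0.222 to 0.881), and in a fit without a filter on low counts it did not pass (edgeR adjusted p = 0.0592).

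Genes that store retinol as ester or release it moved both ways. Of 12, 7 were tested, and 4 rose, 2 fell and 1 did not pass. The share called was 85.7%, beside 74.4% of all tested genes. LRAT, which esterifies retinol, had 4.83 ± 0.624 CPM in shCtrl and 6.72 ± 0.264 in shPRAME, DGAT1, which also forms esters, 10.6 ± 1.22 and 15.6 ± 0.327, and RETSAT, retinol saturase, 42.9 ± 0.862 and 45.9 ± 1.39. With the regional median of 25 genes on each side removed, LRAT and DGAT1 did not pass and RETSAT turned to lower (log2 fold change -0.19), and with 10 genes on each side LRAT stood at -0.13. RETSAT also did not pass without shCtrl replicate 1 (log2 fold change 0.08), shCtrl replicate 2 (0.10) or shPRAME replicate 1 (0.08). LIPE, a lipase with retinyl ester activity, had 1 count in shCtrl and 41 in shPRAME (ratio 39.8, 95% counting interval 6.76 to 1611). LPL, lipoprotein lipase, fell from 333 ± 5.91 to 237 ± 9.29 CPM and PNPLA2, a triglyceride lipase, from 59.6 ± 3.75 to 47.98 ± 1.94 CPM, though PNPLA2 did not pass with the regional median removed.

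Together, 54 further genes of retinoid handling, RXRG included, were listed, of which 20 were tested, and 12 rose, 5 fell and 3 did not pass, with a median log2 fold change of 0.33 against 0.01 over all tested genes. The share called was 85.0%, beside 74.4% of all tested genes. With the median change of the 10 nearest genes on each side removed, 7 of the 20 were higher and 7 lower. In that setting 71.3% of all tested genes were called.

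Ranked per kilobase within the shCtrl libraries, the 9 genes and RXRG ran from ALDH1A3 (89.3) through RARG (31.1), RXRG (27.4), DHRS3 (26.9), STRA6 (13.04), RXRB (7.97), RARA (7.85), RARB (6.37) and RXRA (4.96) to CRABP2 (2.14). RXRG and DHRS3 overlapped between libraries, as did RXRB and RARA, and the other neighbours in this order did not. In shPRAME the order became ALDH1A3 (185), DHRS3 (44.8), STRA6 (16.9), RARG (16.3), RXRB (11.7), RARB (9.64), RARA (7.54), RXRG (4.53), RXRA (3.56) and CRABP2 (1.27), and of the neighbours only STRA6 and RARG overlapped. RXRG moved furthest in this order, from place 3 to place 8. The order depends on the length used: per kilobase of coding sequence in shCtrl, RXRA, at 20.7, stood above STRA6 (17.8), RARA (16.6), RARB (14.6) and RXRB (14.4).

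Other nuclear receptors that pair with RXRs were then read from a list of 13. Of these 10 were tested, 3 rose, 5 fell and 2 did not pass. That is 80.0% called, near the 74.4% of all tested genes. THRB, a thyroid hormone receptor, rose from 0.279 ± 0.0439 to 4.68 ± 0.409 CPM (16.6-fold), THRA from 32.97 ± 1.57 to 43.2 ± 0.907 CPM and NR4A2 from 13.3 ± 0.523 to 18.2 ± 0.225 CPM. NR4A1, an orphan receptor of the early response, fell from 133 ± 5.27 to 66.9 ± 1.04 CPM, the vitamin D receptor gene VDR from 40.9 ± 2.31 to 24.4 ± 0.658 CPM and PPARA from 13.2 ± 0.918 to 8.12 ± 0.328 CPM. PPARG and the liver X receptor gene NR1H2, chosen after their values were seen, did not pass, at 32.8 ± 1.77 and 31.8 ± 0.366 CPM and at 49.1 ± 1.62 and 46.4 ± 0.649 CPM. Of 3 retinoid-related orphan receptors, which are no RXR partners, 2 were tested. RORB rose from 8.01 ± 0.570 to 67.9 ± 2.63 CPM, and RORA, given here with its values known, fell from 0.883 ± 0.0307 to 0.224 ± 0.112 CPM.

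Of 15 corepressors, 4 rose, 3 fell and 8 did not pass, with a median absolute log2 fold change of 0.09 against 0.38 over all tested genes, and 46.7% called against 74.4%. NCOR1 rose by a small amount, from 194 ± 2.23 to 211 ± 0.231 CPM (log2 fold change 0.12, SE 0.0234, edgeR adjusted p = 0.00017), and with the regional median of 25 genes on each side removed it did not pass. EZH2, the Polycomb methyltransferase described as acting with PRAME at RAR targets, named after its values were seen, did not pass, with 76.3 ± 1.28 and 72.8 ± 1.55 CPM (log2 fold change -0.07, SE 0.0307, edgeR adjusted p = 0.0553). TBL1X, a subunit of the NCOR complexes, rose from 34.8 ± 1.31 to 82.5 ± 1.75 CPM and its relative TBL1XR1 from 120.0 ± 2.84 to 166 ± 4.96 CPM, while the deacetylase HDAC1 fell from 165 ± 1.70 to 111 ± 1.62 CPM, and LCOR, a ligand-dependent corepressor, from 91.1 ± 3.29 to 76.1 ± 2.02 CPM. HDAC3, the catalytic subunit of the NCOR complexes, fell from 45.01 ± 0.654 to 37.3 ± 1.75 CPM, but was higher (log2 fold change 0.23) with the median of the 10 nearest genes on each side removed.

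Of 13 coactivators 9 rose, 2 fell and 2 did not pass, with a median log2 fold change of 0.18. Their median absolute log2 fold change was 0.27, against 0.38 over all tested genes. The share called, 84.6%, stands beside 74.4% of all tested genes. The acetyltransferase KAT2A rose from 40.8 ± 2.05 to 60.8 ± 1.40 CPM and the arginine methyltransferase CARM1 from 78.9 ± 2.29 to 98.97 ± 2.22 CPM. KAT2B, the close relative of KAT2A, fell 3.35-fold, from 22.8 ± 0.894 to 6.81 ± 0.156 CPM (log2 fold change -1.74, SE 0.0649, edgeR adjusted p = 1.51e-13), and NCOA1 from 36.4 ± 1.45 to 29.2 ± 1.82 CPM. ASXL1 rose from 136 ± 2.72 to 167 ± 0.527 CPM, but did not pass once either regional median was removed, with a log2 fold change of -0.03 at 10 genes on each side. Against a minimum fold of 1.2, 5 of the 28 coregulators were higher and 2 lower, where 48.4% of all tested genes passed.

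Known targets of retinoic acid were read next. Besides the 4 among the 9 genes, of which RARB, DHRS3 and STRA6 rose and CRABP2 fell, 46 were listed and 30 tested; 15 rose, 9 fell and 6 did not pass, with a median log2 fold change of 0.08. Their share called, 80.0%, was near the 74.4% of all tested genes. PDK4, which restrains pyruvate oxidation and also responds to PPARs and glucocorticoids, rose from 6.57 ± 0.576 to 220.4 ± 19.6 CPM (33.6-fold). The clock-linked repressor BHLHE40 rose from 28.6 ± 1.01 to 68.8 ± 4.43 CPM and the early response gene EGR1 from 25.3 ± 0.402 to 82.6 ± 9.84 CPM. TGM2, tissue transglutaminase, a classical retinoic acid target, fell from 311 ± 1.27 to 155 ± 12.2 CPM (2-fold). ICAM1, an adhesion receptor that inflammatory signals also induce, fell as well, with a log2 fold change of -2.61. Several of these genes answer to other signals too, so their changes are not assigned to retinoic acid.

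The HOX genes near the front of the clusters, which retinoic acid induces in embryos, moved both ways. Named here after their values were seen, HOXB2 (from 66.2 ± 1.29 to 85.1 ± 0.931 CPM), HOXB3 (from 29.9 ± 1.64 to 34.6 ± 1.01 CPM), HOXB4 (edgeR adjusted p = 4.91e-05) and HOXA3 (from 28.9 ± 1.51 to 31.4 ± 1.51 CPM) passed as higher. The median log2 fold change of the 50 tested genes around HOXB2, HOXB3 and HOXB4 was 0.19, 0.20 and 0.19, against 0.36, 0.21 and 0.34 for the genes themselves. HOXD4 fell from 3.61 ± 0.722 to 1.76 ± 0.235 CPM. HOXA2, HOXA4, HOXA5 and HOXB5 did not pass. Among their cofactors MEIS1 had a log2 fold change of 1.63 (edgeR adjusted p = 2.12e-10), and MEIS2 did not pass at -0.05.

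**Figure D3:**
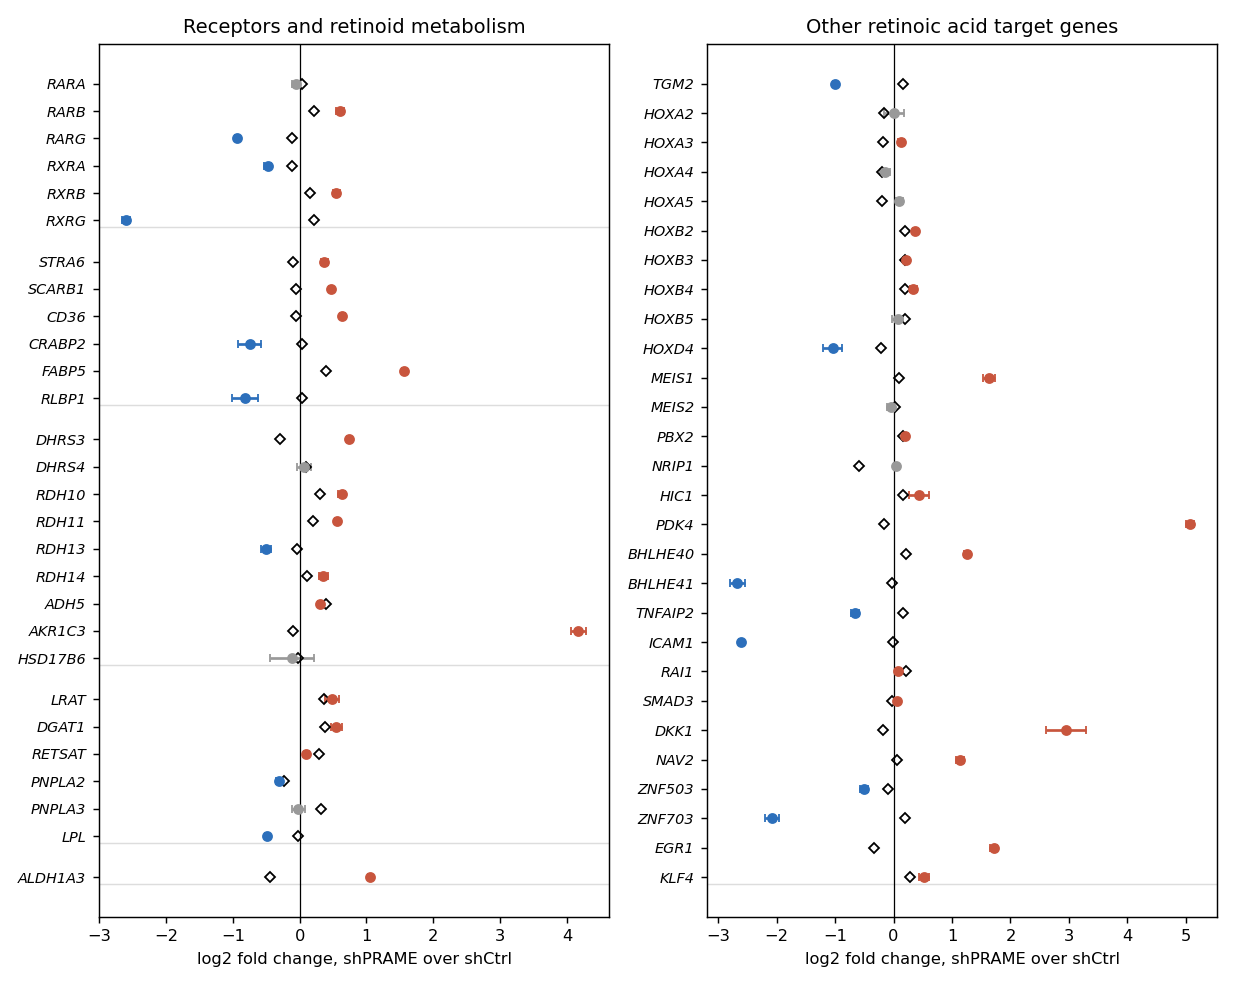
Points give log2 fold changes of shPRAME over shCtrl with 1 SE, for tested receptor and retinoid metabolism genes without LIPE (left) and for other tested retinoic acid targets, 2 of which are not drawn (right); red points passed the test as higher, blue as lower and grey did not pass. Open diamonds give the median log2 fold change of up to 25 tested genes on each side of the gene, which is -0.45 at ALDH1A3, where the gene itself is at 1.05.

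Each gene was then set beside its neighbours, up to 25 tested genes on each side. These stretches, called regions here, are long: 17843 kb around RARB, 8941 kb around ALDH1A3, 8408 kb around RXRG and 5968 kb around DHRS3. Over all tested genes 37.7% were called higher and 36.8% lower. Around ALDH1A3, near the end of chromosome 15, there were 38 neighbours, of which 9 were higher and 21 lower, with a median log2 fold change of -0.45. ALDH1A3 ranked 5 from the top among them. Around DHRS3, 5 of 50 neighbours were higher and 30 lower (median -0.29), and DHRS3 ranked 6. Both genes thus rose within regions that were on balance lower. RARB lay in a region that was higher, with 30 of 50 neighbours higher and 9 lower (median 0.21). Its nearest tested neighbours were THRB, given above, and TOP2B (log2 fold change 0.21). RXRG lay in such a region too, with 29 higher and 10 lower (median 0.21), and 1 of its 50 neighbours had a lower value. For RARG the neighbours had a median of -0.11, for RXRA -0.12, for RXRB 0.16, for STRA6 -0.10, for CRABP2 0.03 and for RARA 0.03. Less these medians, the log2 differences were 0.39 for RARB, -0.83 for RARG, -0.35 for RXRA, 0.40 for RXRB, 1.02 for DHRS3, 0.48 for STRA6 and -0.78 for CRABP2.

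**Figure D4:**
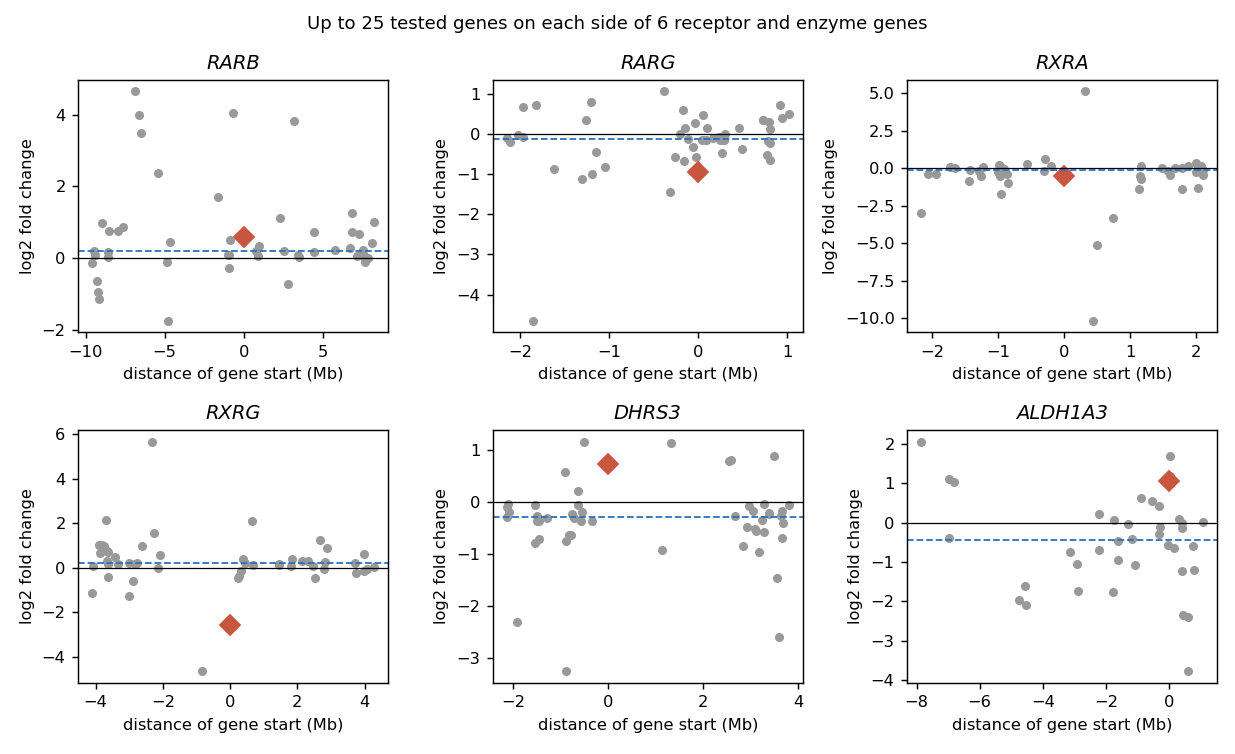
Each panel plots log2 fold changes (shPRAME over shCtrl) of up to 25 tested genes on each side (grey) of the gene named above it (red diamond) against the distance between gene starts in megabases; the dashed line is the neighbours' median. ALDH1A3 and DHRS3 lie above and RXRG lies below most of their neighbours, while RARB, at 0.60, lies nearer to its neighbours' median of 0.21.

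Overlapping genes could add reads to some of these counts if strand was not used. TOP2B, at a mean of 174 CPM, overlaps RARB by 28 bases. CCDC33, at 0.832 CPM, overlaps STRA6, and the antisense genes RARA-AS1, at 0.721 CPM, and ALDH1A3-AS1, at 0.706 CPM, overlap RARA and ALDH1A3. These last 3 were low beside the 23.4 CPM of RARA, 43.3 CPM of STRA6 and 537 CPM of ALDH1A3, and all were higher in shPRAME, with log2 fold changes of 1.02 to 1.37.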

How the data were processed

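Levels of mRNA were measured by polyA RNA sequencing with read pairs of 150 bases. The authors deposited whole-number counts per NCBI gene identifier, and no normalization shows in them. Tools named in the submitters' processing notes are STAR, fastp and Salmon, and builds hg38 and GRCh38. Their versions and roles, the counter's annotation and the use of strand: not given in the sources used here.

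Of 40929 rows per file, 34 with repeated identifiers were added together, and 40789 of 40895 identifiers matched RefSeq (GRCh38.p14). Counts were tested with edgeR 4.0.16 (filterByExpr, TMM, glmQLFit, glmQLFTest, 2-sided, group as the only term) and Benjamini-Hochberg adjustment over all 15954 tested genes; the threshold was 0.05. The SE is the log2 fold change over the root of F. The fit was tested on simulated data with 50 genes changed at each fold. It recovered 23 at 1.2-fold, 39 at 1.5-fold, 42 at 2-fold and 49 at 4-fold, and called 13 unchanged genes. Few genes were changed there, whereas 74.4% were called in the real data, so the scaling under so broad a change was not tested. Lengths came from GENCODE release 29, and similar transcripts from blastn 2.17.0. To the CRABP2 and FABP5 levels 0.01 was added before the ratio. Intervals and floors cover counting error only.

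The 9 genes, the gene lists and the alternatives were chosen with earlier results of these data known. Named genes are PRAME, the 9, the RAR, RXR, ALDH1A and CYP26 families, and nearest neighbours. Added to these are up to 3 genes per list and direction with the smallest adjusted p at a mean of at least 1 CPM. Most others are said to be named after their values were seen. LIPE, CRABP1 and the cell type markers were also named outside this rule. Some genes of these lists are counted in the totals but not reported here. Alternatives were other size factors, filters and tools (DESeq2 1.42.0, limma-voom 3.58.1), a minimum fold of 1.2, a replicate block, leaving out each library, other lengths, and the regional median entered as an offset in the fit.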

Additional observations from a re-analysis of the deposited data

How the results depend on the processing

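The counts of 5 higher and 3 lower among the 9 retinoid genes were the same in all 16 alternatives. Of 210 values for the counts, sums, shares and ratios, 199 stayed within a wide tolerance. For a count this was 1.5-fold, so 12 other retinoid metabolism genes falling to 8 at 25 genes on each side stayed within it. For the rest it was the pooled SD of the groups. Under the replicate block those differences cannot move, so these values say nothing about stability. Against a minimum fold of 1.2, 8 other retinoic acid targets were higher (15 before). Of the coregulators, 5 were higher (13 before) and 2 lower (5 before). That test called 48.4% of all tested genes. With the regional median removed, 7 other retinoid metabolism genes were higher at 10 genes on each side (12 before), and 8 coregulators were lower at 25 (5 before). In these 2 settings 71.3% and 71.2% of all tested genes were called, and the cause of the shifts was not tested. Single genes turned direction in the same 2 settings: RETSAT to -0.19 and -0.23, and, at 10 genes, LRAT to -0.13, HDAC3 to 0.23 and ASXL1 to -0.03 on the log2 scale. The length used sets the size of levels: the difference in RXRA share was 8.28 percentage points with coding length (5.72 before), the difference in the log2 ratio of RAR to RXR 0.45 with coding length and 0.38 with no length (0.59 before), and the difference in summed ALDH1A level 243 and 374 (95.3 before), or 100.1 when scaled to library totals only. Same-numbered libraries did not deviate together (r = -0.0596, -0.115 and -0.101), so the numbers were not taken as pairs; with the replicate block 5 of the 9 genes were higher and 3 lower, and 56 of 56 results kept their side of the threshold or stayed within 1.5 times the count, and for the shares and ratios the smallest possible p is 0.25. At this depth the CYP26 genes, ALDH1A1 and ALDH1A2 were below the filter for testing.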
